A study of Mus musculus with 18 samples.

Results

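The 10 endothelial marker genes Pecam1, Cdh5, Kdr, Flt1, Tek, Tie1, Emcn, Egfl7, Esam and Plvap were followed across 18 libraries of cultured and transplanted mouse fibroblasts. They were chosen as listed symbols, each of which matched 1 Ensembl row among the 38924 genes counted. All 10 were among the 16577 genes that passed the filter on low counts. Tie1, Emcn and Plvap had 0 to 11 counts in every cultured library, Cdh5 1 to 22 and Esam 1 to 17. These genes passed the filter through the transplanted libraries, where their means were higher in each organ. Their calls as higher are included in the counts below, and their changes in the medians, and neither is independent of the filter.

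The libraries fell into 6 groups of 3: heart, kidney and tail fibroblasts sorted after transplantation (HFs, KFs and TFs) and the same cells kept in culture (HFc, KFc and TFc). The donors of all cells were male Rosa mT/mG mice on a C57BL/6 background, aged 10 weeks, which carry a membrane-targeted TdTomato reporter throughout the body, and all cells were grown for 10 days before the arms were split. For HFs, KFs and TFs, 400000 to 500000 cells on gelatin foam were placed beneath the renal capsule of a syngeneic C57BL/6J recipient aged 10 to 11 weeks, and after 3 days the live CD45−;TdTomato+ cells were sorted. For HFc, KFc and TFc, remaining cells were replated at 50000 per well and kept for 3 additional days, and no sort is described for them, so that effects of the transplantation and of the sort cannot be told apart. The general isolation of fibroblasts in the study selects CD90+;CD45−;CD31− cells, CD31 being the product of Pecam1, while the gate after transplantation names TdTomato and CD45 but no endothelial marker. Fibroblast genes were abundant throughout, with the collagens Col1a1, Col1a2 and Col3a1 leading, and 10 listed fibroblast genes had a summed level of 15037 CPM in the lowest library and 126972 CPM in the highest, CPM being a count divided by the normalised size of its library.

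Levels are given as CPM of the total count scaled by the trimmed mean of M-values (TMM), and changes as log2 fold change ± standard error. Adjusted p-values come from the quasi-likelihood test of edgeR and are corrected by the Benjamini-Hochberg method over every gene tested. Library totals lay between 17927838 and 32245168 counts, so that 3 counts, taken as the floor, were worth 0.0890 to 0.180 CPM in 1 library. KFs replicate 3 stood apart. Its title gives it as a replicate of KFs, but its column is named for kidney fibroblasts with no replicate code, unlike the other columns. It held 1492 CPM of Xist against at most 0.404 in the other 17 libraries, and the Y-linked Ddx3y, Eif2s3y, Kdm5d and Uty summed to 0.722 CPM there and to between 175 and 230 CPM elsewhere, although every donor was labelled male. Its 12 leukocyte genes summed to 13.0 CPM, against 123 and 154 CPM in the other KFs libraries. Its fibroblast genes summed to 19930 CPM, where the other KFs libraries held 97280 and 72485 CPM and KFc 15037 to 15937 CPM. Calls in KFs against KFc are therefore given with and without it.

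Endothelial cells line blood vessels and hold together through adherens junctions. Vascular endothelial growth factor (VEGF) acts on them through receptor tyrosine kinases at their surface, and the angiopoietins through a second receptor pair that steadies mature vessels. The markers below are used to find endothelial cells in tissue, although several of them are also made at lower levels by other cells. In bulk RNA a lower level can mean fewer cells of a type or less RNA per cell, and these cannot be told apart.

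Positions are those of GENCODE mouse release 21 on GRCm38, and all 10 genes are protein coding. Of the junction and adhesion genes, Pecam1 (ENSMUSG00000020717, chr11:106654217-106750628, minus strand) encodes the adhesion molecule CD31, Cdh5 (ENSMUSG00000031871, chr8:104101625-104144511, plus strand) encodes VE-cadherin of the adherens junction, and Esam (ENSMUSG00000001946, chr9:37528078-37538319, plus strand) encodes an adhesion molecule of tight junctions. The VEGF receptors are Kdr (ENSMUSG00000062960, chr5:75932827-75978458, minus strand), the main signalling receptor VEGFR2, and Flt1 (ENSMUSG00000029648, chr5:147561604-147726011, minus strand), a decoy-like receptor also made in a soluble form. Tek (ENSMUSG00000006386, chr4:94739289-94874976, plus strand) encodes the angiopoietin receptor TIE2, and Tie1 (ENSMUSG00000033191, chr4:118471191-118490061, minus strand) its partner. Emcn (ENSMUSG00000054690, chr3:137341067-137432185, plus strand) encodes the sialomucin endomucin, Plvap (ENSMUSG00000034845, chr8:71497765-71511752, minus strand) a component of the diaphragms of fenestrae and caveolae, and Egfl7 (ENSMUSG00000026921, chr2:26580014-26593120, plus strand) a secreted matrix protein whose intron holds miR-126. Egfl7 overlaps a predicted gene on its own strand, and its counts could be split with it, while Plvap and Cdh5 overlap genes of the opposite strand, which the stranded counting set apart.

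RefSeq promoter windows of 300 bases on GRCm38.p6 were held for 6 of the 10 genes, in 8 windows. They were searched on both strands for AGGAAG, a core bound by ETS factors, which are regulators of endothelial genes, and AGATAA, bound by GATA factors. Of the 8 windows, 5 held AGGAAG, which was in 35.4% of all 32851 promoter windows, and 1 held AGATAA, which was in 11.2% of all. Several of the 8 windows belong to Egfl7. Shown here are the bases upstream of the annotated gene for Tie1, Emcn, Flt1 and Tek, picked by their results. Tie1 and Emcn rose in every organ, though the call of Emcn in KFs was lost in 8 of 12 alternatives. Flt1 and Tek differed between the transplanted groups. AGGAAG or its reverse complement is in capitals.
Tie1, chr4:118490062-118490099, minus strand: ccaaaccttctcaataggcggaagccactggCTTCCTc
Emcn, chr3:137340828-137341066, plus strand: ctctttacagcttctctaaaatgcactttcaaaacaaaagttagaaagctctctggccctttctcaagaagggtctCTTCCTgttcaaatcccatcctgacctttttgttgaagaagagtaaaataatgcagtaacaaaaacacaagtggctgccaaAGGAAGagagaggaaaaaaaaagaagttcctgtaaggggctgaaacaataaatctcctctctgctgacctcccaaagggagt
Flt1, chr5:147726012-147726261, minus strand: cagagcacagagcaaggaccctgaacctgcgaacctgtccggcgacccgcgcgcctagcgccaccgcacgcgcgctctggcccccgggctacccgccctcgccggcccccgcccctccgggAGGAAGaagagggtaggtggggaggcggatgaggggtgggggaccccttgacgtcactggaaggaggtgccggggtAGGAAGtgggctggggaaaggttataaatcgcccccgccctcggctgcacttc
Tek, chr4:94739039-94739288, plus strand: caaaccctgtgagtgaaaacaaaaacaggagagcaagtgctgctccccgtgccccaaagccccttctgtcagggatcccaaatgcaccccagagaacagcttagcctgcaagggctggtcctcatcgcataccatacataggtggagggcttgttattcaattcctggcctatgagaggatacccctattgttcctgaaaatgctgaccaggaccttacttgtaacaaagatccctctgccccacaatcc
The stretches of Emcn and Flt1 each held 2 matches and that of Tie1 held 1, while the Tek stretch held none. That of Kdr, which was called higher in HFs and TFs and is not shown, held none either. A match of letters is a description of the window and not a measured binding site.

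After transplantation most of the 10 genes were higher than in culture, but they did not move as one. Against HFc, 8 rose in HFs (Cdh5, Kdr, Tek, Tie1, Emcn, Egfl7, Esam and Plvap) and 0 fell, where 18.3% of all genes tested rose and 9.33% fell by the same rule, an adjusted p under 0.05 and a log2 fold change beyond 1. Against KFc, 6 rose in KFs (Cdh5, Flt1, Tie1, Emcn, Egfl7 and Plvap) and 1 fell (Tek), beside 14.7% of all genes that rose and 7.99% that fell. Against TFc, 5 rose in TFs (Kdr, Flt1, Tie1, Emcn and Plvap) and 0 fell, beside 11% and 5.53% of all genes. The median log2 fold change over the 10 genes was 3.19 in heart, 1.38 in kidney and 1.80 in tail fibroblasts. The median over all genes tested was 0.05, 0.09 and 0.00. Counts and medians include Tie1, Emcn, Plvap, Cdh5 and Esam, which passed the filter through the transplanted libraries, so neither is independent of it. Tie1, Emcn and Plvap rose in all 3 organs, though the rise of Emcn in KFs was lost in 8 of 12 alternatives, while Pecam1 passed the test in none. Without KFs replicate 3, 5 genes were called in KFs against KFc in place of 7, as Flt1 (0.99) and Tek (-0.89) came inside the limit of 1 while their adjusted p stayed under 0.05. By that fit 12.9% of all genes rose and 10.3% fell. In the fit of KFs and KFc alone the count was 3.

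**Figure D1:**
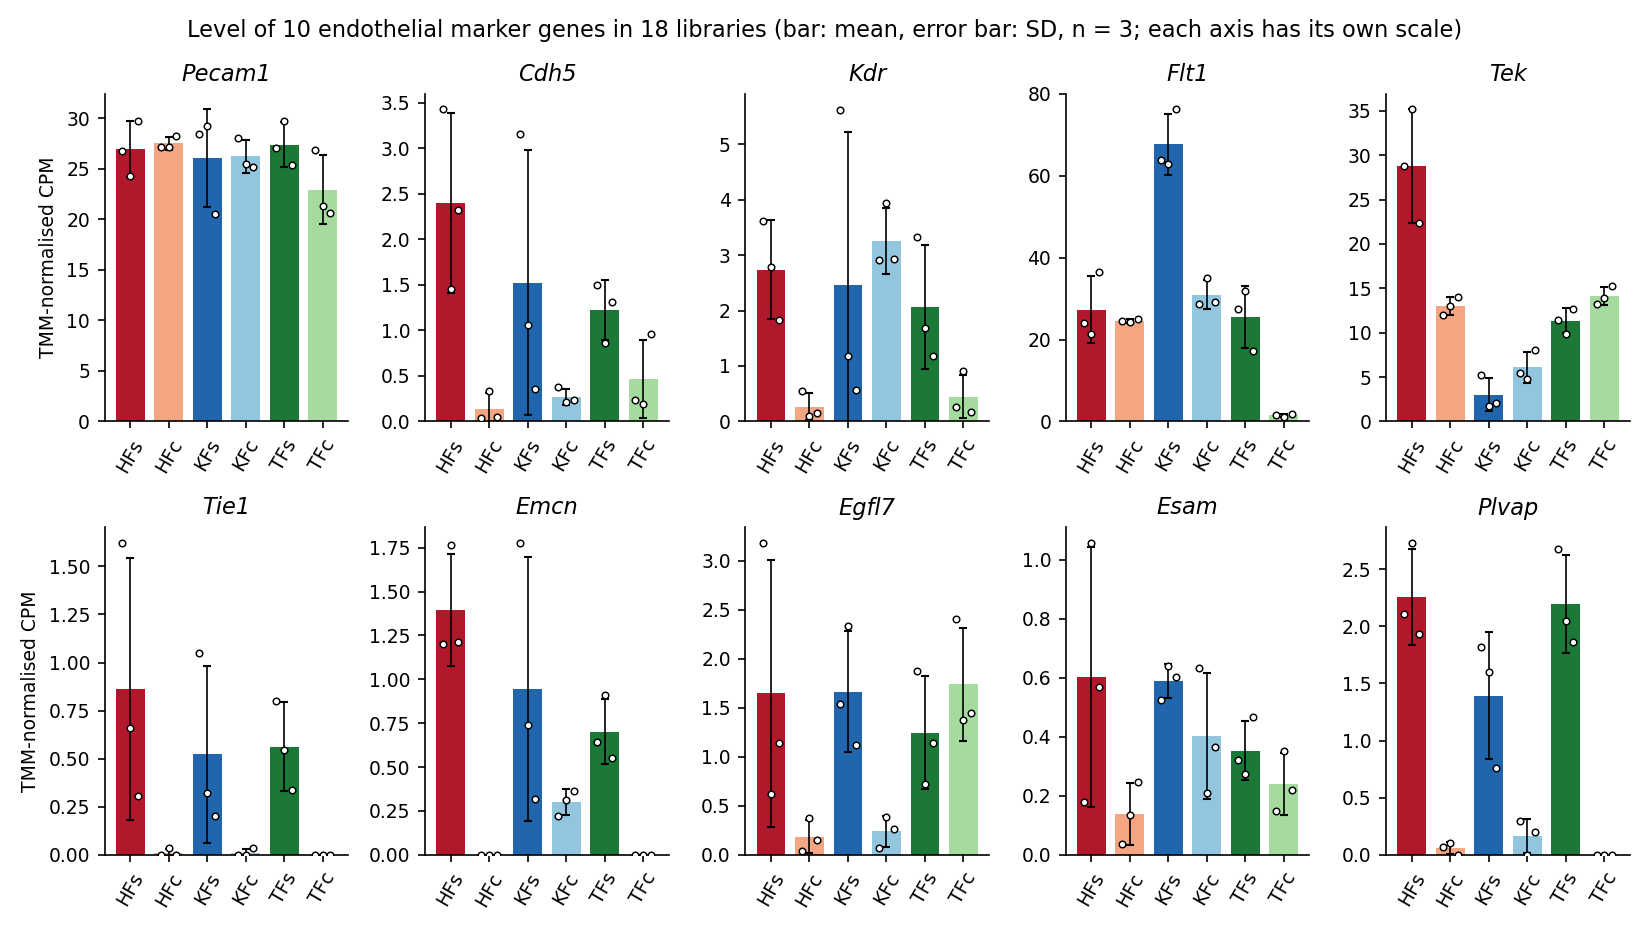
TMM-normalised CPM of the 10 endothelial marker genes, 1 panel per gene with its own linear axis, in the 6 groups. Bars are means of 3 libraries, error bars SD and points single libraries. Pecam1 stayed between 20.5 and 29.8 CPM in all 18 libraries, while Tie1 was at most 0.0338 CPM in culture and at least 0.2 CPM in every transplanted library.

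Pecam1 was the flattest of the genes. Its level lay between 20.5 and 29.8 CPM in all 18 libraries, a ratio of 1.45 between the highest and the lowest, and of the 14209 tested genes with counts in every library 2.88% had a smaller ratio. The group means ran from 27.5 ± 0.643 CPM (SD, n = 3) in HFc to 22.9 ± 3.40 in TFc, and every group overlapped its neighbour in that order. The log2 fold change after transplantation was -0.03 ± 0.13 (adjusted p = 0.862) in heart, -0.01 ± 0.13 (adjusted p = 0.967) in kidney and 0.26 ± 0.13 (adjusted p = 0.145) in tail fibroblasts.

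Cdh5 was much lower than Pecam1 and did change. It stood at 3.43, 1.45 and 2.32 CPM in HFs against 0.0364, 0.338 and 0.0491 in HFc, without overlap, and rose by 3.96 ± 0.89 (adjusted p = 0.00143). In KFs it stood at 3.15, 1.06 and 0.361 CPM against 0.373, 0.209 and 0.233 in KFc. KFs replicate 3 was the lowest there and lay just under the highest KFc library, and the rise was 2.47 ± 0.82 (adjusted p = 0.0213), or 2.89 without that replicate. This call was lost without KFs replicate 1 (1.39), without KFc replicate 2 or 3, and in the fit of KFs and KFc alone. In TFs it stood at 1.50, 0.863 and 1.31 CPM against 0.237, 0.196 and 0.965 in TFc, where replicate 3 reached into the range of TFs, and the difference of 1.41 ± 0.80 (adjusted p = 0.173) did not pass. Per kilobase of exon, Pecam1 was 131 times as high as Cdh5 in HFc, 65.1 times in KFc and 33.2 times in TFc, and 7.57, 11.5 and 15.1 times in HFs, KFs and TFs. Both genes are used as markers of endothelial cells, but in HFc and KFc Pecam1 was plain in every library while Cdh5 had at most 10 counts.

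Esam was scarce everywhere, with 1 to 24 counts per library. It stood at 0.180, 1.06 and 0.570 CPM in HFs against 0.0364, 0.135 and 0.246 in HFc, where the lowest HFs library lay inside the HFc range, and rose by 2.15 ± 0.70 (adjusted p = 0.0167), a call lost without HFs replicate 2 and without HFc replicate 1 or 2. The means were 0.589 ± 0.0587 CPM in KFs and 0.403 ± 0.215 in KFc, a difference of 0.55 ± 0.63 (adjusted p = 0.493). They were 0.353 ± 0.101 in TFs and 0.240 ± 0.104 in TFc, a difference of 0.57 ± 0.68 (adjusted p = 0.535), and neither passed.

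With all libraries, Kdr rose in heart and tail fibroblasts and Flt1 in kidney and tail fibroblasts. Kdr stood at 3.61, 2.78 and 1.82 CPM in HFs against 0.546, 0.102 and 0.147 in HFc, without overlap, and rose by 3.32 ± 0.86 (adjusted p = 0.00388). In KFs it stood at 5.62, 1.19 and 0.561 CPM against 2.91, 3.94 and 2.92 in KFc. KFs replicate 1 was above all KFc libraries and the other KFs libraries were below them, and the difference of -0.41 ± 0.72 (adjusted p = 0.661) did not pass. It turned with single libraries, being -1.88 and called lower without KFs replicate 1, and 0.01 without KFs replicate 3. In TFs Kdr stood at 3.32, 1.68 and 1.19 CPM against 0.267, 0.903 and 0.175 in TFc, without overlap, and rose by 2.19 ± 0.81 (adjusted p = 0.0431), which passed with all libraries but not without TFs replicate 1 or 2 or TFc replicate 1 or 3.

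Flt1 stood at 23.9, 21.3 and 36.6 CPM in HFs and 24.4, 24.2 and 25.1 in HFc, an overlap with a difference of 0.15 ± 0.22 (adjusted p = 0.567). In KFs it was the highest of any group, with 63.8, 62.9 and 76.3 CPM against 28.6, 35.1 and 29.2 in KFc and a rise of 1.13 ± 0.22 (adjusted p = 0.000494). In TFs it stood at 27.4, 31.9 and 17.2 CPM against 1.57, 1.14 and 1.84 in TFc, the only group in which it was low, and rose by 4.07 ± 0.26 (adjusted p = 3.87e-08). The order of the means was KFs, KFc, HFs, TFs, HFc and TFc. KFs lay above KFc and HFc above TFc without overlap, and the groups from KFc to HFc overlapped with their neighbours.

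The angiopoietin receptors differed from each other in level, and both rose in HFs. Tek stood at 28.8, 35.2 and 22.3 CPM in HFs against 12, 13.0 and 14.0 in HFc, without overlap, and rose by 1.14 ± 0.30 (adjusted p = 0.00399). In KFs it stood at 5.17, 1.73 and 2.12 CPM against 5.41, 4.75 and 8.07 in KFc, overlapping in KFs replicate 1, and fell by 1.02 on the log2 scale (SE 0.32, adjusted p = 0.0141). This call was lost without KFs replicate 2 or 3, without KFc replicate 3 and in the fit of KFs and KFc alone. In TFs Tek stood at 11.5, 9.86 and 12.7 CPM against 13.3, 13.9 and 15.2 in TFc, every TFs library below every TFc library, and the difference of -0.32 ± 0.30 (adjusted p = 0.422) did not pass.

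Tie1 had 0 or 1 count in each of the 9 cultured libraries and 5 to 27 in each transplanted library. It stood at 1.62, 0.661 and 0.304 CPM in HFs, 1.05, 0.321 and 0.200 in KFs and 0.803, 0.545 and 0.339 in TFs. The 50 counts in HFs against 1 in HFc gave a ratio of 58.9 (95% interval 10.1 to 2372) after scaling, and the 41 in KFs against 1 in KFc a ratio of 43.4 (95% interval 7.36 to 1754). Against TFc, where all libraries were at 0, Tie1 was at least 14.9-fold higher in TFs, taking 3 counts over the group as the floor. These intervals and floors cover counting error only. The adjusted p was 0.00109, 0.00295 and 0.00181 in heart, kidney and tail fibroblasts, that in kidney being 0.00162 without KFs replicate 3, and each call was kept in every alternative in which Tie1 was tested.

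The surface glycoproteins Emcn and Plvap were at or near 0 in most cultured libraries and higher after transplantation. Emcn stood at 1.2, 1.76 and 1.21 CPM in HFs and at 0 in every HFc library, and was at least 36.1-fold higher (adjusted p = 4.41e-05). It stood at 0.642, 0.909 and 0.551 CPM in TFs and at 0 in every TFc library, at least 19.1-fold higher (adjusted p = 0.000291). KFc was the only cultured group with Emcn, at 0.224, 0.314 and 0.366 CPM, against 1.78, 0.737 and 0.321 CPM in KFs. KFs replicate 3 was inside the range of KFc, and the rise of 1.63 ± 0.60 (adjusted p = 0.0426) was lost in 8 of 12 alternatives, among them the removal of KFs replicate 1 or 2 or of any KFc library, while it was 1.99 without KFs replicate 3.

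Plvap stood at 2.10, 2.73 and 1.94 CPM in HFs against 0.0729, 0.102 and 0 in HFc and rose by 5.06 ± 0.84 (adjusted p = 0.000187). In KFs it stood at 1.82, 1.60 and 0.762 CPM against 0.298, 0 and 0.199 in KFc and rose by 3.04 ± 0.74 (adjusted p = 0.00381), or 3.30 without KFs replicate 3. In TFs it stood at 2.68, 2.04 and 1.87 CPM against 0 in every TFc library, at least 59.1-fold higher (adjusted p = 7.98e-05). In all 3 organs every transplanted library was above every cultured library of that organ.

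Egfl7 rose where culture held little of it. It stood at 3.19, 0.617 and 1.14 CPM in HFs against 0.0364, 0.372 and 0.147 in HFc and rose by 3.07 ± 0.76 (adjusted p = 0.00294). It stood at 1.54, 2.34 and 1.12 CPM in KFs against 0.0746, 0.384 and 0.266 in KFc and rose by 2.76 ± 0.73 (adjusted p = 0.00557), or 2.93 without KFs replicate 3. In TFc it was already at 2.40, 1.37 and 1.45 CPM, overlapping with 1.87, 0.727 and 1.15 in TFs, and the difference of -0.49 ± 0.66 (adjusted p = 0.584) did not pass.

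**Figure D2:**
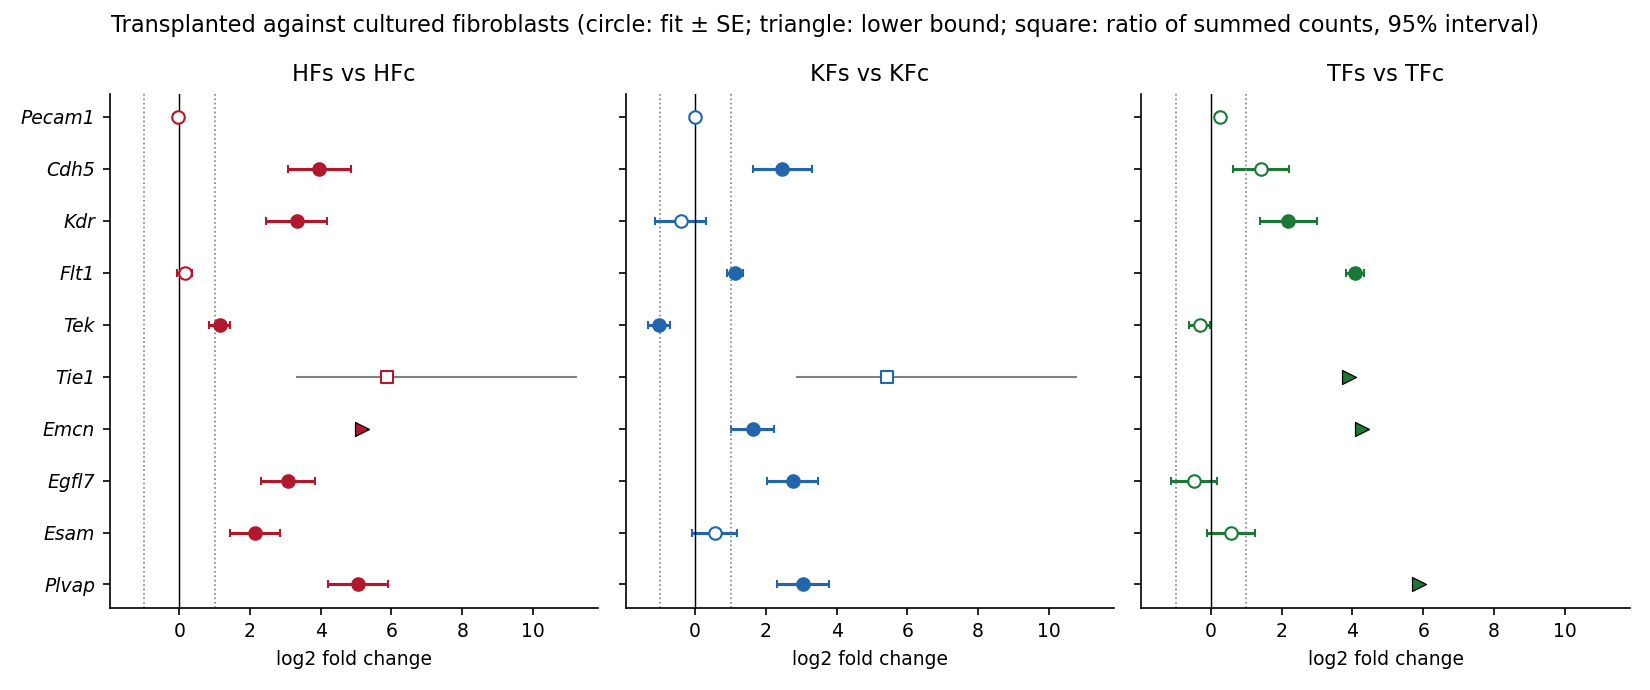
Log2 fold change of each gene in transplanted against cultured fibroblasts, 1 panel per organ. Circles are fitted values ± SE, filled where called and open where not, squares are ratios of summed counts with 95% counting intervals where culture held 1 count (both called), triangles are lower bounds where culture held 0 (all called), and dotted lines mark a change of 1. Pecam1 sat at -0.03, -0.01 and 0.26, and Plvap lay beyond 3 in every panel.

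The 10 genes were unequal in level. In CPM, Flt1, Pecam1 and Tek held 98.3% to 99.1% of the summed CPM of the 10 genes in HFc, 92.8% to 93.4% in KFc and 92.8% to 93.2% in TFc. Their share was 83.8% to 90.5% in HFs, 86.3% to 96.2% in KFs and 85.6% to 91.0% in TFs. Levels were then divided by exon length, so that genes of different length can be set side by side. The highest level per kilobase was that of Tek in HFs, at 6.10 ± 1.36 CPM per kilobase, followed by Flt1 in KFs at 5.01 ± 0.552. Pecam1 led in HFc, KFc, TFs and TFc, at 4.42 ± 0.103 in HFc. The other 7 genes stayed at or below 1.14 ± 0.211 CPM per kilobase, the level of Plvap in HFs, and Tie1 was the lowest of the 10 in HFs, KFs and TFs. Tek and Flt1 were not above the other 7 in every group, as Plvap stood at 0.702 ± 0.281 in KFs where Tek stood at 0.639 ± 0.400, and Egfl7 at 0.486 ± 0.161 in TFc where Flt1 stood at 0.112 ± 0.0263. In TFc the mean CPM of Egfl7, 1.74 ± 0.575, also exceeded that of Flt1, 1.52 ± 0.355.

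**Figure D3:**
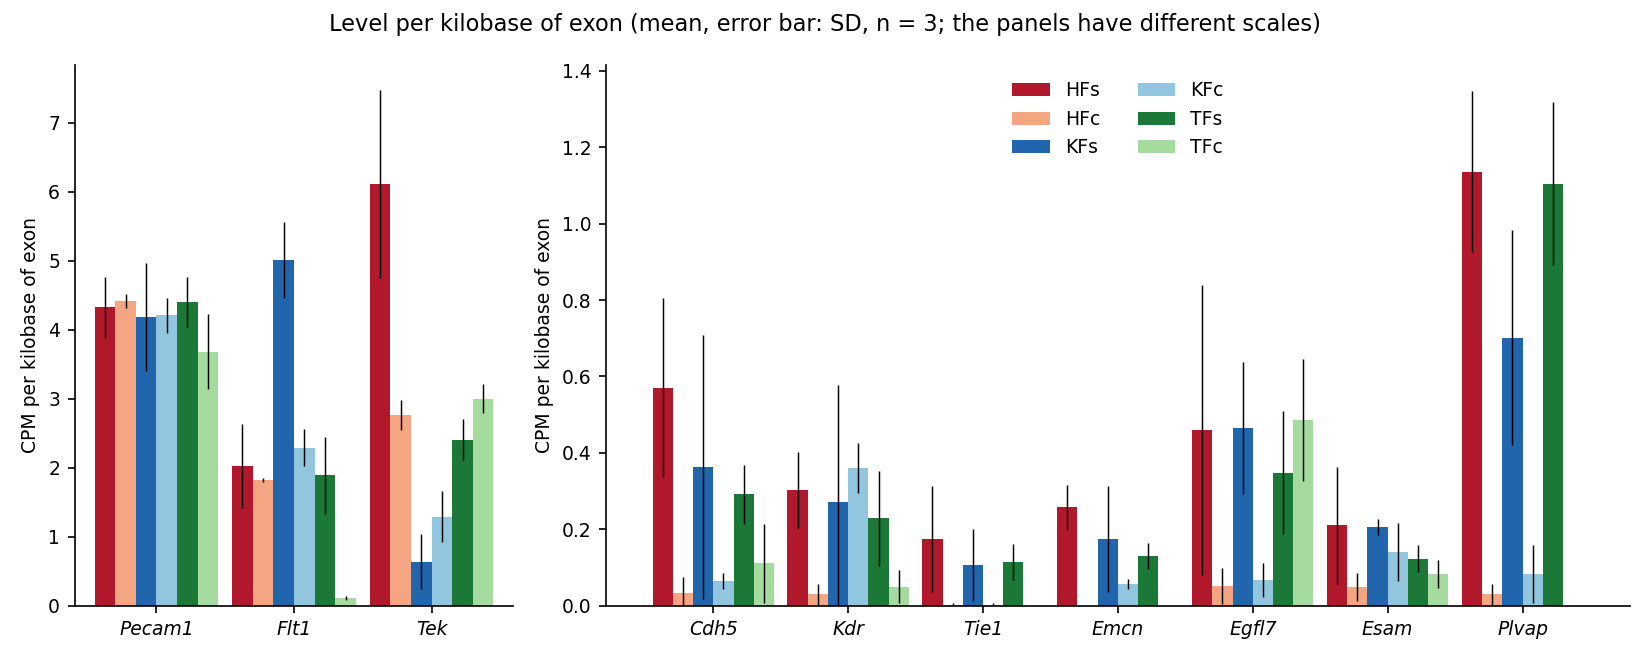
Level per kilobase of exon of Pecam1, Flt1 and Tek (left) and of the other 7 genes (right, on a smaller scale) in the 6 groups. Bars are means and error bars SD of 3 libraries. Tek in HFs reached 6.10 ± 1.36 CPM per kilobase, while Plvap in HFs, the highest bar on the right, reached 1.14 ± 0.211.

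The cultured fibroblasts already differed between organs. In HFc against TFc, Flt1 was higher by 4.02 ± 0.26 (adjusted p = 1.01e-08) and Egfl7 lower at -3.17 ± 0.76 (adjusted p = 0.00322), where 20.9% of all genes were called higher and 21% lower at an adjusted p under 0.05. In KFc against TFc, Flt1 was higher by 4.35 ± 0.26 (adjusted p = 1.02e-08) and Kdr by 2.85 ± 0.81 (adjusted p = 0.0121), and Tek was lower at -1.21 ± 0.30 (adjusted p = 0.00546) and Egfl7 at -2.82 ± 0.73 (adjusted p = 0.00693). Emcn was at least 8.30-fold and Plvap at least 4.47-fold higher in KFc than in TFc, where both were at 0. The adjusted p was 0.00148 for Emcn and 0.013 for Plvap. KFc replicate 2 was also at 0 for Plvap. The 4 genes higher and 2 lower stood beside 17.8% and 18.5% of all genes. In HFc against KFc, Tek was higher by 1.10 ± 0.30 (adjusted p = 0.0123) and Kdr lower at -3.58 ± 0.86 (adjusted p = 0.00509), and Emcn was at least 7.83-fold lower in HFc (adjusted p = 0.00197), beside 15.1% of all genes higher and 14% lower. The call of Kdr in KFc against TFc was lost without TFc replicate 1 or 3, and that of Tek in HFc against KFc without KFc replicate 1 or 2. Of the cultured groups KFc held the most Kdr and Emcn and the least Tek.

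Between the transplanted groups only the more abundant receptors Flt1 and Tek passed the test. Tek was higher in HFs than in TFs by 1.34 ± 0.30 (adjusted p = 0.00404) and was the 1 gene called there, beside 10.3% of all genes higher and 12.7% lower. In KFs against TFs, Flt1 was higher by 1.41 ± 0.22 (adjusted p = 0.000207) and Tek lower at -1.92 ± 0.32 (adjusted p = 0.000376), beside 15.3% and 13.8%. In HFs against KFs, Tek was higher by 3.26 ± 0.33 (adjusted p = 4.5e-06) and Flt1 lower at -1.31 ± 0.22 (adjusted p = 0.000355), beside 14.2% and 19%. Each of these calls was kept without any single library, and Tek in KFs against TFs was lost in the fit of those groups alone. The libraries of HFs, KFs and TFs did not overlap for Tek, in the order HFs, TFs and KFs. For Cdh5, Kdr, Tie1, Emcn, Egfl7, Esam and Plvap the differences between transplanted groups lay between -0.65 and 0.99 with standard errors of 0.57 to 0.80. Differences of this size were not detectable by the test with these libraries. Every KFs library was still below every HFs and TFs library for Plvap. Every TFs library was below every HFs library for Emcn and below every KFs library for Esam.

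The response to transplantation was then compared between organs by interaction contrasts, called at an adjusted p under 0.05. The heart response exceeded that of the tail for Egfl7 by 3.56 ± 1.00 (adjusted p = 0.0186) and for Tek by 1.46 ± 0.42 (adjusted p = 0.0203), and fell short of it for Flt1 at -3.91 ± 0.34 (adjusted p = 2.38e-06), so that 3 of 10 genes were called, beside 22.8% of all genes. Flt1 overlapped between HFs and TFs and did not between HFc and TFc. Kidney and tail responses differed for 4 genes, beside 11.1% of all genes. Of these, Flt1 stood at -2.94 ± 0.33 (adjusted p = 7.6e-05) and Egfl7 at 3.25 ± 0.98 (adjusted p = 0.0437). Emcn and Plvap were called too (adjusted p = 0.0187 and 0.0323), but TFc was at 0 for both, and the size of the difference has no fixed value there. Heart and kidney responses differed for 4 genes, beside 26.2% of all genes. Kdr stood at 3.73 ± 1.12 (adjusted p = 0.0226), Tek at 2.17 ± 0.43 (adjusted p = 0.00195) and Flt1 at -0.98 ± 0.30 (adjusted p = 0.027), and Emcn was called (adjusted p = 0.00343) with HFc at 0. Several of these calls turned on 1 library. Egfl7 in kidney against tail was lost in 11 of 17 alternatives, Plvap there in 7, and Flt1 in heart against kidney in 5. Kdr in heart against kidney was lost without HFc replicate 2 or 3, Tek in heart against tail without HFs replicate 2, HFc replicate 1 or TFs replicate 2, and Egfl7 in heart against tail without HFs replicate 1. The count of 4 for heart against kidney was 2 without HFc replicate 3, and that for kidney against tail was 2 without KFc replicate 1 or 3, TFs replicate 2 or 3 or any TFc library. All of them were kept without KFs replicate 3. These contrasts share groups with the comparisons above and with each other.

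Within a transplanted group the libraries ranked differently for different genes. Cdh5, Kdr, Tie1 and Egfl7 were highest in HFs replicate 1, whereas Tek, Emcn, Esam and Plvap were highest in HFs replicate 2. In KFs, replicate 1 was the highest of the group for 6 of 10 genes and replicate 3 the lowest for 7 of 10. The 7 genes other than Flt1, Pecam1 and Tek summed to 15.3, 11.1 and 9.30 CPM in HFs, 15.5, 7.88 and 3.93 in KFs and 11.1, 7.04 and 6.87 in TFs. In culture they summed to 0.590 to 1.08 CPM in HFc, 4.39 to 5.06 in KFc and 2.81 to 3.06 in TFc. KFs replicate 3 was thus below all KFc libraries on this sum, while every other transplanted library was above all cultured libraries.

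Likeness of pattern was measured as the root mean square difference of mean-centred log2 CPM over the 18 libraries. The gene of the 10 nearest to Cdh5 was Tie1, at 0.81, with 20 tested genes nearer, and Flt1 was the farthest at 1.98, with 14506 tested genes nearer. Outside the 10, the nearest to Cdh5 were Gm26559 (0.66), D030047H15Rik (0.70), Nxph4 (0.71), Col1a2 (0.73), Mmp2 (0.74), Mroh7 (0.75), Gm15726 (0.78), Mefv (0.78), Gpr153 (0.78) and Col1a1 (0.78). None of these was on the endothelial lists used here, and Col1a2 and Col1a1 were on the fibroblast list. The measure is noisy for a gene with 1 to 78 counts per library.

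Endothelial genes outside the 10 moved in both directions. Their counts stand beside the shares of all genes tested given above, 18.3% higher and 9.33% lower in HFs, 14.7% and 7.99% in KFs and 11% and 5.53% in TFs. Of 19 tested junction and surface genes, 8 rose and 2 fell in HFs, 9 rose and 2 fell in KFs, and 7 rose and 1 fell in TFs, with medians of 1.66, 1.89 and 1.40 on the log2 scale. Without KFs replicate 3, 6 rose and 2 fell in KFs, the calls of Aplnr, Nos3 and Podxl being lost. These 3 genes are named here because their calls changed. Of all 22 listed, 4 were at 0 in all libraries of HFc, 4 in KFc and 5 in TFc, and 0, 0 and 1 in HFs, KFs and TFs. The most abundant of them went down in heart and kidney fibroblasts. Ptprb, the phosphatase VE-PTP, stood at 382 ± 15.2 CPM (SD, n = 3) in HFc and 44.2 ± 9.41 in HFs, a change of -3.12 ± 0.24 (adjusted p = 7.66e-08), and at -1.86 ± 0.24 (adjusted p = 1.56e-05) in KFs against KFc, or -2.19 without KFs replicate 3. Eng, the TGF-β co-receptor endoglin, stood at 503 ± 6.80 and 167 ± 1.34 CPM in HFc and HFs, a change of -1.59 ± 0.24 (adjusted p = 4.41e-05), and at -1.47 ± 0.24 (adjusted p = 0.00014) in kidney fibroblasts, or -1.18 without KFs replicate 3. Ecscr, a surface regulator of endothelial migration, rose by 2.02 ± 0.25 (adjusted p = 8.96e-06) in KFs and 2.09 ± 0.25 (adjusted p = 1.11e-05) in TFs. Cd34 stood at -0.51 ± 0.44 (adjusted p = 0.335), 0.43 ± 0.46 (adjusted p = 0.462) and -0.01 ± 0.44 (adjusted p = 0.985) in heart, kidney and tail fibroblasts.

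Among 12 tested endothelial transcription factors, 4 rose and 1 fell in HFs, 4 rose and 3 fell in KFs, and 1 rose and 3 fell in TFs. Without KFs replicate 3, 3 rose and 2 fell in KFs, as Gata2 (-0.87) came inside the limit of 1 and Sox7 was lost. Ets1, an ETS factor, was lower in HFs at -1.07 ± 0.13 (adjusted p = 7.95e-06) and rose by 1.18 ± 0.14 (adjusted p = 8.44e-06) in TFs. Gata2 stood at -0.71 ± 0.19 (adjusted p = 0.00455), -1.01 ± 0.18 (adjusted p = 0.000298) and -1.36 ± 0.19 (adjusted p = 4.43e-05) in heart, kidney and tail fibroblasts. The change of Gata2 in heart fibroblasts stayed inside the limit of 1. Klf4 was lower in KFs at -1.19 ± 0.24 (adjusted p = 0.000735), and Mecom was called in none of the 3 comparisons.

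Ligands and co-receptors of the VEGF and angiopoietin receptors rose more often than they fell, 7 and 0 of 11 in HFs, 5 and 1 in KFs and 5 and 0 in TFs. Without KFs replicate 3 the counts in KFs were 4 and 1. Vegfa, the main ligand of Kdr, stood at 74.3 ± 3.23 CPM in TFc and 286 ± 81.4 in TFs, a rise of 1.94 ± 0.29 (adjusted p = 8.56e-05), and at 0.71 ± 0.28 (adjusted p = 0.0393) in heart and 0.37 ± 0.27 (adjusted p = 0.283) in kidney fibroblasts. The value in heart stayed inside the limit of 1, and that in kidney did not pass. Vegfd stood at 259.6 ± 6.69 CPM in KFc and 38.3 ± 39.9 in KFs, a change of -2.76 ± 0.56 (adjusted p = 0.000759), or -2.30 without KFs replicate 3. The co-receptor Nrp1 rose by 1.09 ± 0.26 (adjusted p = 0.00194) in HFs and 1.43 ± 0.26 (adjusted p = 0.000466) in TFs, and Nrp2 was called in none of the 3.

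Of 13 arterial, venous and Notch genes, 3 rose and 4 fell in HFs, 0 rose and 2 fell in KFs, and 1 rose and 2 fell in TFs, and without KFs replicate 3, 1 rose and 3 fell in KFs. Unc5b, a netrin receptor of arterial endothelium, fell in all 3 organs, with -1.61 ± 0.18 (adjusted p = 2.4e-06), -1.68 ± 0.18 (adjusted p = 2.39e-06) and -1.75 ± 0.18 (adjusted p = 3.2e-06). Jag1, a Notch ligand, fell in HFs at -1.66 ± 0.33 (adjusted p = 0.000587) and rose in TFs by 1.50 ± 0.34 (adjusted p = 0.00274), and stood at -0.38 ± 0.33 (adjusted p = 0.35) in KFs, where it was called lower at -1.27 without KFs replicate 3. The receptor Notch1 stood at 0.46 ± 0.13, -0.10 ± 0.13 and 0.24 ± 0.13 and Ephb4, a venous ephrin receptor, at 0.00 ± 0.10, 0.00 ± 0.10 and 0.21 ± 0.10 in heart, kidney and tail fibroblasts, and neither was called.

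Lists for vessel beds and wall cells moved in both directions. Of 9 kidney endothelial genes, 6 rose and 2 fell in HFs, 3 rose and 2 fell in KFs, and 3 rose and 1 fell in TFs. Lpl, a lipase held on capillaries, rose in all 3 by 2.18 ± 0.24 (adjusted p = 2.36e-06), 1.42 ± 0.24 (adjusted p = 0.000154) and 2.58 ± 0.25 (adjusted p = 1.42e-06). Plat, the tissue plasminogen activator, stood at 1.61 ± 0.10, 1.60 ± 0.10 and 0.44 ± 0.10 in the 3 organs and was called in HFs and KFs. Fbln5, an elastic fibre protein, stood at -1.18 ± 0.46, -3.15 ± 0.49 and -0.95 ± 0.46 and was called lower in HFs and KFs. Igfbp7, the most abundant gene of the list in HFs at 968 ± 77.4 CPM, stood at 0.70 ± 0.07, -0.57 ± 0.07 and 0.68 ± 0.07, inside the limit of 1 in each.

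Of 4 lymphatic endothelial genes, 1 rose and 1 fell in HFs, 1 rose in KFs and none was called in TFs. Reln, a secreted glycoprotein, stood at 1.90 ± 0.26, 1.52 ± 0.25 and 0.64 ± 0.25 and rose in HFs and KFs. Pdpn, a surface mucin that fibroblasts also make, stood at -1.15 ± 0.20, 0.22 ± 0.20 and -0.58 ± 0.20 and fell in HFs. Prox1, the transcription factor of lymphatic identity, stood at 0.88 ± 0.52, -0.69 ± 0.51 and -1.17 ± 0.55, and was called lower in KFs at -1.79 without KFs replicate 3. Lyve1, a hyaluronan receptor, stood at 0.875 ± 0.475, 0.700 ± 0.241 and 0.131 ± 0.182 CPM in HFs, KFs and TFs and was not called.

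Of 10 pericyte and mural genes, 6 rose and 2 fell in HFs, 3 rose and 4 fell in KFs, and 3 rose and 1 fell in TFs. Myh11, a smooth muscle myosin, fell in all 3 organs, at -2.54 ± 0.60, -4.11 ± 0.58 and -3.03 ± 0.60. Mcam, the adhesion molecule CD146, stood at -2.74 ± 0.48, -2.30 ± 0.46 and -0.01 ± 0.53 and fell in HFs and KFs. Notch3 stood at 0.39 ± 0.17, -0.59 ± 0.18 and 0.49 ± 0.18 and Pdgfrb, the receptor of platelet-derived growth factor on mural cells, at 0.32 ± 0.22, -0.32 ± 0.22 and -0.03 ± 0.22, and neither was called. No call of the kidney endothelial or mural list changed without KFs replicate 3.

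Lists for other cells of kidney and blood were read by the same calls. The shares of all genes tested were 18.3% higher and 9.33% lower in HFs. They were 14.7% and 7.99% in KFs and 11% and 5.53% in TFs. All 12 proximal tubule genes rose in HFs and in TFs and 10 of 12 rose in KFs, or 9 without KFs replicate 3. Genes at 0 in a cultured group passed the filter through other libraries and could only be called higher against that group. Of the 12 genes, 7 were at 0 in all HFc libraries and 6 each in KFc and TFc, Kap, an androgen-regulated kidney protein, and Slc27a2 among them in every cultured group. Slc34a1, the phosphate transporter of the proximal tubule, stood at 66.3 ± 93.3, 8.59 ± 5.79 and 32.3 ± 19.5 CPM in HFs, KFs and TFs. Lrp2, the endocytic receptor megalin, stood at 3.53 ± 0.75, -1.24 ± 0.68 and 3.08 ± 0.74 on the log2 scale and was not called in KFs. The summed level of the 12 genes was 162, 1236 and 125 CPM in HFs against 20.8 to 22.3 in HFc, 132, 65.6 and 99.7 in KFs beside 98.5 to 105 for the KFc libraries, and 353, 130 and 190 in TFs against 14.7 to 17.7 in TFc.

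Of 6 tested erythroid genes, 5 rose in HFs, 1 in KFs and 5 in TFs, and all 6 rose in KFs without replicate 3. Of the 7 listed, 6 were at 0 in every library of each cultured group and could only be called higher against it. The summed level of the list was 38.4, 0.132 and 43.8 CPM in HFs, 8.89, 3.46 and 0.120 in KFs and 7.65, 2.68 and 9.54 in TFs. It was at most 0.209 CPM in any cultured library. The hemoglobin genes Hba-a1, Hba-a2, Hbb-bs and Hbb-bt that lead that list are near-identical copies whose counts may be shared. HFs replicate 2, which had the most tubule RNA and almost no erythroid RNA, was the highest HFs library for Tek, Emcn, Esam and Plvap and the lowest for Pecam1, Cdh5, Flt1 and Egfl7. The recipients are not described as carrying TdTomato, and whether RNA of their cells entered the sorted libraries was not tested. The part of tubule and blood cells in the levels of the 10 genes was not tested.

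The leukocyte list had genes called lower in KFs and TFs but none in HFs. It holds Ptprc, which encodes CD45. Transplanted cells were sorted as CD45− and no sort is described for cultured cells. Effects of that gate and of the transplantation on this list cannot be told apart. Of the 12 leukocyte genes, 0 rose or fell in HFs, 9 fell in KFs with or without replicate 3 and 6 fell in TFs. The summed level was 97.9 to 167 CPM in HFs against 105 to 120 in HFc, between 13.0 and 154 in KFs where KFc held 470 to 504, and between 41.2 and 49.6 in TFs where TFc held 190 to 219. The macrophage genes Csf1r, at 0.26 ± 0.20, -2.88 ± 0.21 and -2.47 ± 0.22, Lyz2, at 0.59 ± 0.63, -2.20 ± 0.65 and -2.42 ± 0.67, and C1qb, at -0.48 ± 0.48, -3.63 ± 0.51 and -2.61 ± 0.53, fell in KFs and TFs, and Itgam, at 0.72 ± 0.62, -1.02 ± 0.60 and -0.92 ± 0.64, was called in none.

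Of 4 platelet genes, 2 rose and 1 fell in HFs, 1 rose and 1 fell in KFs and 2 fell in TFs. The glycoprotein gene Gp1bb fell in all 3 organs, at -1.05 ± 0.38, -1.33 ± 0.38 and -1.49 ± 0.39. Itga2b, the integrin CD41, stood at 1.89 ± 0.36, 0.50 ± 0.35 and 0.65 ± 0.34 and rose in HFs, and the chemokine gene Pf4, at 0.85 ± 0.82, 0.43 ± 0.83 and 0.23 ± 0.95, was called in none. Ppbp, a chemokine gene, was at 0 in HFc and at 0.599 ± 0.0666 CPM in HFs, and stood at 2.25 ± 0.54 (adjusted p = 0.00371) in KFs and -2.04 ± 0.46 (adjusted p = 0.00329) in TFs. Of 7 podocyte genes, 4 rose in HFs, 1 rose and 1 fell in KFs and 1 rose in TFs. Wt1, a podocyte transcription factor, rose in HFs by 1.67 ± 0.30 (adjusted p = 0.000242) and stood at 0.93 ± 0.25 (adjusted p = 0.00605) in KFs, and it was called higher in TFs at 0.154 ± 0.191 CPM, against 0.0146 ± 0.0253 in TFc. The actin-associated Synpo, at -0.60 ± 0.11, 0.45 ± 0.11 and 0.53 ± 0.11, and the scaffold gene Magi2, at 0.66 ± 0.19, -0.75 ± 0.19 and 0.30 ± 0.19, were called in none. Of 10 fibroblast genes, 8 rose and 2 fell in HFs, 8 rose in KFs and 7 rose and 1 fell in TFs. Col1a1 stood at 2.60 ± 0.39, 2.06 ± 0.38 and 0.77 ± 0.37, Col1a2 at 2.76 ± 0.37, 2.08 ± 0.36 and 1.35 ± 0.35 and Col3a1 at 3.00 ± 0.47, 2.80 ± 0.47 and 3.03 ± 0.47, called higher in each organ but for Col1a1 in TFs, while Vim, an intermediate filament gene, stood at -1.22 ± 0.13, -0.50 ± 0.13 and -1.06 ± 0.13 and fell in HFs and TFs. No call of the platelet, podocyte or fibroblast list changed without KFs replicate 3.

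**Figure D4:**
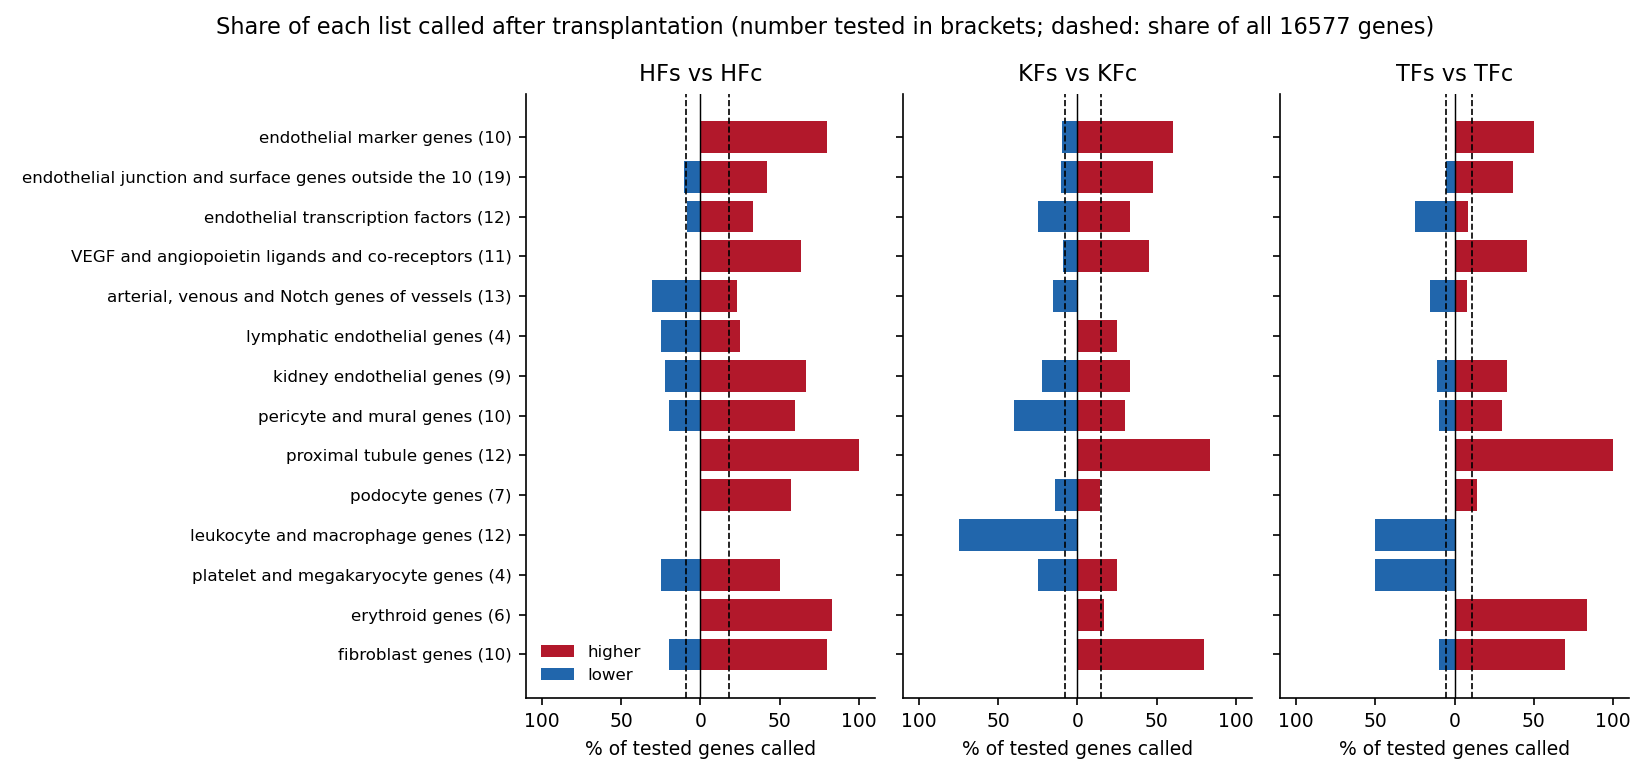
Share of tested genes of each list called higher (right) or lower (left) in transplanted against cultured fibroblasts, 1 panel per organ, with the number tested in brackets and dashed lines at the share over all 16577 genes. The 10 endothelial marker genes were called higher in 8, 6 and 5 cases, and the proximal tubule genes in 12, 10 and 12 of 12.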

How the data were processed

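Bulk RNA of 18 libraries was sequenced by the authors as 75-base single-end reads of a stranded total RNA kit. Per the study's methods, reads were trimmed for quality and aligned to GRCm38 by Bowtie2 within RSEM, whereas the GEO labels name mm9, Bowtie and RSEM. The annotation release is not given in the sources used here. The authors deposited RSEM expected counts, one column per library, without normalization. They were whole numbers, and the rounding is not described. No deposited column was left out.

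Groups and replicates were taken from sample titles. Of the gene identifiers, 37607 matched GENCODE mouse release 21 and 1317 did not. Counts were fitted with edgeR 4.0.16 in R 4.3.3 (filterByExpr, TMM, glmQLFit, glmQLFTest) over all 18 libraries with one mean per group. The adjusted p was taken over the 16577 genes tested. Transplanted against cultured calls needed an adjusted p under 0.05 and a log2 fold change beyond 1, and other calls the adjusted p alone. The study calls its replicates biological but the labels do not tie libraries to animals, so p-values measure the spread between these libraries. Every pair of replicates differed by more than sampling noise. Where a group summed to 0 counts, a fold is a lower bound against 3 counts over the group, and where it summed to 1, an exact counting interval is given. Tested on simulated data for HFs against HFc with 16577 genes, the script found 191 of 200 changed genes and called 4 unchanged ones. The changed genes were drawn above a limit on the mean count that Tie1, Emcn and Esam do not reach. Recovery of genes as scarce as these was therefore not tested.

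The text names the 10 marker genes, the 4 genes of highest mean CPM of each other list, and the 10 genes nearest to Cdh5. Aplnr, Nos3, Podxl and Sox7 were named after their values were seen. A gene that the rule selects is not reported here. The members and lists were chosen with earlier results of these data known. Alternatives were DESeq2 1.42.0, its size factors, no filter, a mean of at least 10 counts, the replicate number as a block, fits of 2 groups, other thresholds and leaving out each library. Figures were drawn with matplotlib 3.10.9.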

Additional observations from a re-analysis of the deposited data

Results flagged for a closer look

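Results are listed here because the response to transplantation differed between organs by an interaction contrast in edgeR at an adjusted p under 0.05. For heart minus tail, Flt1 stood at -3.91 ± 0.34 (adjusted p = 2.38e-06), Tek at 1.46 ± 0.42 (adjusted p = 0.0203) and Egfl7 at 3.56 ± 1.00 (adjusted p = 0.0186) on the log2 scale. For kidney minus tail, Flt1 stood at -2.94 ± 0.33 (adjusted p = 7.6e-05) and Egfl7 at 3.25 ± 0.98 (adjusted p = 0.0437). For heart minus kidney, Kdr stood at 3.73 ± 1.12 (adjusted p = 0.0226), Flt1 at -0.98 ± 0.30 (adjusted p = 0.027) and Tek at 2.17 ± 0.43 (adjusted p = 0.00195). The fitted values of Emcn were -5.53 ± 1.29 (adjusted p = 0.0187) for kidney minus tail and 6.52 ± 1.29 (adjusted p = 0.00343) for heart minus kidney, and that of Plvap for kidney minus tail was -5.75 ± 1.57 (adjusted p = 0.0323). A cultured group was at 0 in each of these last contrasts, so their size depends on the prior count and is no bound. With 3 libraries in each group, no group was searched for single outlying libraries.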

How the results depend on the processing

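Over the 9 comparisons of groups and 3 interaction contrasts, 47 results of single genes were called and 32 kept their call and direction in every alternative in which the gene was tested. No called result changed direction. Of the alternative values of called results, 578 stayed past the threshold and 58 did not, and of the uncalled ones 10 passed it in an alternative. For KFs against KFc, 7 of the 10 genes were called, against 3 in the fit of KFs and KFc alone and 4 at an adjusted p under 0.01. For KFs against TFs, 2 genes were called, against 1 (Flt1) in the fit of those groups alone. Leaving out 1 library at a time gave 7 to 8 called genes for HFs against HFc, 4 to 6 for KFs against KFc (4 without KFc replicate 3), 4 to 5 for TFs against TFc, 2 to 3 for HFc against TFc and for HFc against KFc, 5 to 6 for KFc against TFc, and the full number for the comparisons of transplanted groups. For the interaction contrasts it gave 2 to 4 for heart minus tail, 2 to 6 for kidney minus tail and 2 to 5 for heart minus kidney. The calls that turned on KFs replicate 3 were Flt1 and Tek in KFs against KFc (0.99 and -0.89 without it). Calls also lost in alternatives, beside those named above, were Kdr in KFc against TFc (without TFc replicate 1 or 3), Tek in HFc against KFc (without KFc replicate 1 or 2), Tek in KFs against TFs (those groups alone), and single interactions. The causes were not tested, beyond the fewer samples of the fits of 2 groups and of those without a library. No pairing by replicate number was seen, as the correlations of same-numbered libraries' deviations lay between -0.139 and 0.0792 over 27 pairs. Noise between replicates could hide a pairing, so this does not show that the libraries were unpaired. With a replicate block, 8, 6 and 5 genes were called in HFs, KFs and TFs against culture. For the kidney minus tail response it gave 3 in place of 4. Depth limits the scarcer genes, since Tie1, Emcn, Esam and Plvap had at most 62 counts in any library.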
